A study of Mus musculus with 2 samples.

Results

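Chaperones are proteins that help other proteins to fold and keep unfolded ones from clumping. In the cytosol this work is done mainly by the Hsp70 and Hsp90 families with their co-chaperones, many of whose genes are induced by the transcription factor Hsf1 after heat or other protein damage. In the endoplasmic reticulum (ER), where secreted and membrane proteins fold, a separate set of chaperones, disulfide isomerases and degradation factors is induced by Atf6 and Xbp1 in the unfolded protein response. Melanocytes make large amounts of glycosylated melanosome enzymes that pass through the ER.

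The 33 genes described here were chosen by name: 13 heat shock genes of the cytosol and mitochondria and 20 ER folding genes, out of 32285 genes in the count matrix, and all 33 were found in it. They were measured in B16 F10, a pigment-making mouse melanoma line that carries no label of a genetic change or treatment here. Both groups came from cultures seeded at a density of 100 cells/cm2, kept in DMEM with high glucose and fetal bovine serum, harvested on day 7 and separated by side scatter on a flow cytometer into low pigment and high pigment cells. Each group gave 1 droplet library of 3′ ends (10x Genomics), in which every molecule carries a unique molecular identifier (UMI). All values describe 1 sort of 1 line. With 1 library per group no test between groups was possible, so differences are given as ratios with 95% intervals that cover counting error only.

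The authors' cell table held 1900 low pigment cells with 32437194 UMIs and 2136 high pigment cells with 28848691 UMIs, with medians of 16019.5 and 12557 UMIs per cell. G1, S and G2M phase calls covered 39.4%, 37.1% and 23.5% of the low pigment cells and 33.1%, 22.4% and 44.4% of the high pigment cells. All 7 melanocyte lineage markers were present in both libraries, with at least 3525 UMIs each. The summed markers of fibroblasts, leukocytes, keratinocytes and erythroid cells lay at or under 1.97 counts per 1000000 UMIs (CPM) in either library. Of the 5 endothelial markers, 4 had at most 3 UMIs, while Pecam1 had 726 UMIs in low and 81 in high pigment cells. The libraries shared 0 barcode sequences among the cells of the table and 2 in the whole matrix.

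Of the 13 heat shock genes, 10 were measured, that is, had a mean of at least 10 CPM over the libraries. A gene was called lower in high pigment cells at a ratio of high to low pigment CPM of at most 0.8, and higher at the reciprocal of 0.8 or more. Of the 10 genes 5 were called lower and 0 higher, beside 23.4% of 7849 measured genes lower and 10.9% higher. Their median log2 ratio of high to low pigment was -0.32, beside -0.08 over all measured genes. Both counts rest on scaling by total UMIs. With the median gene's ratio set to 1 instead, 2 of 10 heat shock genes were lower, beside 17.3% of all genes lower and 15.8% higher.

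Hspa8, the constitutive Hsp70 of the cytosol (chr9:40800984-40810087, build mm10), had 1925 CPM in low and 1037 CPM in high pigment cells. Its ratio of 0.539 (0.531 to 0.546) was the lowest of the 10 heat shock genes, and 2.75% of all measured genes had a smaller one. Hsph1, an Hsp110 protein that exchanges the nucleotide of Hsp70, had 142 and 92.9 CPM (ratio 0.654, 0.624 to 0.686). These 2 genes were the ones lower by at least 1.5-fold, a limit passed downward by 8.08% and upward by 3.25% of all measured genes.

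The other 3 genes called lower lay close to the limit of 0.8. Hspd1, the mitochondrial chaperonin Hsp60, had 1474 CPM in low and 1155 CPM in high pigment cells (ratio 0.784). Hsp90ab1, the constitutive cytosolic Hsp90, had 3804 and 3039 CPM, a ratio of 0.799 (0.792 to 0.806). Dnajb1, an Hsp40 co-chaperone that delivers substrates to Hsp70, also had a ratio of 0.799, with a wider interval of 0.726 to 0.879. Of 6 other settings, Hsp90ab1 kept its call in 2, and Hspd1 and Dnajb1 in 3 each. Just outside the limit lay the related co-chaperone Dnaja1, at 663 and 535 CPM (ratio 0.807).

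Members of one chaperone pair did not share a ratio. The stress-inducible Hsp90aa1 had 3137 CPM in low and 3039.7 CPM in high pigment cells (0.969, 0.960 to 0.978), well apart from the 0.799 of Hsp90ab1. Hspe1, the Hsp10 lid of the Hsp60 chaperonin, had 1149 and 1099 CPM (0.956, 0.942 to 0.971), against 0.784 for Hspd1. Bag3, a co-chaperone that routes Hsp70 clients to autophagy, was the one measured heat shock gene with a ratio above 1 (Hsp90aa1 and Hspe1 join it, at log2 ratios of 0.035 and 0.016, with the median gene's ratio set to 1), at 49.4 and 57.4 CPM (1.16, 1.08 to 1.246), short of a call. The transcript of Hsf1 itself had 37.1 and 33.2 CPM (0.895, 0.821 to 0.975).

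The classic stress-inducible genes were rare in both libraries. Hspa1b, an inducible Hsp70, had 240 UMIs in 186 low pigment cells and 111 UMIs in 88 high pigment cells, or 7.40 and 3.85 CPM (ratio 0.520, 0.411 to 0.654). Its near-identical neighbour Hspa1a had 14 UMIs in low pigment and 0 in high pigment cells. Against the floor of 3 counts in the library at 0, that is 4.15-fold lower, while the interval of counting error began at 2.95-fold. Reads of the 2 copies can be assigned to either. Hspb1, a small heat shock protein, had 34 UMIs in 29 low pigment cells and 2 UMIs in high pigment cells, a ratio of 0.0661 with an interval of 0.0077 to 0.258. All 14 UMIs of Hspa1a and 31 of the 34 of Hspb1 fell in cells of the deposited cluster 2, which held 822 of the 1900 low pigment cells.

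The promoters of the heat shock genes held letters of the heat shock element, to which Hsf1 binds as inverted repeats of GAA. RefSeq promoters of build GRCm38.p6 were available for 9 heat shock and 17 ER genes; Hsp90aa1, Hsp90ab1, Hspa8, Hsf1, Manf, Hyou1 and Atf6 were not in the table. The 250 bases before each start were searched on both strands. GAANNTTC was found in 6 of 9 heat shock genes (Hspa1a, Hspa1b, Dnaja1, Hspb1, Hspd1 and Hspe1) and in 7.73% of 27025 genes. TTCNNGAA was found in Hsph1, Hspd1 and Hspe1, and in 8.11% of all genes. The 3-unit form GAANNTTCNNGAA, which contains both, was found in Hspd1 and Hspe1 and in 0.514% of all genes. Within this stretch, 0 of 17 ER promoters held any of these forms. Of these genes, 3 windows are given on the strand of the gene, with the matched units in capitals, because they show the shared and the separate forms.
Hspe1: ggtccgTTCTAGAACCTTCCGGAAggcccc
Hspa1b: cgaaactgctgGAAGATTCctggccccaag
Hsph1: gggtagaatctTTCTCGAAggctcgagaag
The first window lies at chr1:55088053-55088082, within the stretch where Hspd1 and Hspe1 start in opposite directions, so both genes share these letters although their ratios were 0.784 and 0.956. The Hspa1b window lies at chr17:34959324-34959353 on the minus strand, and its letters are the same in Hspa1a. The Hsph1 window lies at chr5:149636351-149636380 on the minus strand. Across the genome, 34 measured genes had the 3-unit form, and 5 of them were lower and 4 higher in high pigment cells, with a median log2 ratio of -0.014. A match of letters is a description and does not show that a factor binds there.

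All 20 ER genes were measured, and every one of them had a ratio below 1. In other settings 3 of them passed above 1: Manf had a log2 ratio of 0.0076 with the median gene's ratio set to 1, and Syvn1 and Atf6 had 0.026 and 0.17 in cells with 0 Jun and Fos UMIs. In high pigment cells 9 of 20 were called lower and 0 higher, beside the same 23.4% and 10.9% of all measured genes. The median log2 ratio of the ER genes was -0.30. Among genes of at least 50 CPM, where 13.3% of 3047 genes were lower and the median log2 ratio was 0.0042, the list had 8 of 15 lower and a median of -0.32. With the median gene's ratio set to 1, 7 of 20 ER genes were lower.

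The ER chaperones and lectins held the most abundant counts of the list. Hspa5, or BiP, the ER Hsp70 (chr2:34771970-34777547), had 1129.7 CPM in low and 725 CPM in high pigment cells, a ratio of 0.642 (0.631 to 0.653). Hsp90b1, or Grp94, the ER Hsp90, had 821 and 667 CPM (0.812, 0.797 to 0.827), just outside the limit. Calr and Canx, the soluble and the membrane-bound lectin that hold newly glycosylated proteins, had unlike ratios. Calr (chr8:84841850-84846934) had 737 and 505 CPM (0.684, 0.670 to 0.698), and Canx had 449.8 and 378 CPM (0.839, 0.819 to 0.860). Hyou1, the ER Hsp110, had 29.9 and 22.9 CPM (0.766, 0.693 to 0.847) and kept its call in 4 of 6 other settings.

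Disulfide isomerases form and rearrange the disulfide bonds of folding proteins. All 3 on the ER list were called lower, beside 23.4% of all measured genes, although Pdia3 lay at the limit. The class was not lower throughout. The isomerase P4hb, from a further list and chosen after its values were seen, had 312 CPM in low and 281 CPM in high pigment cells and was not called. Pdia6 (chr12:17266545-17284770) had 351 CPM in low and 204 CPM in high pigment cells. Its ratio of 0.582 (0.564 to 0.6004) was the lowest of the ER genes, with 3.9% of all measured genes below it. Pdia4 had 185 and 129 CPM (0.698, 0.670 to 0.727), and Pdia3, the partner of the lectins, had 358 and 286 CPM (0.799, 0.776 to 0.822) and kept its call in 2 of 6 other settings. Pdia6 and Hspa5 were the 2 of 20 ER genes lower by at least 1.5-fold, a count near the 8.08% of all measured genes.

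The J-domain proteins, which pass substrates to BiP, were split. Dnajb9 had 69.3 and 46.3 CPM (0.669, 0.625 to 0.716) and was called lower. Dnajb11 and Dnajc3 had ratios of 0.857 and 0.867 and were not, while Sdf2l1, which acts in a complex with Dnajb11, had 99.7 and 72.3 CPM (0.725, 0.686 to 0.767) and was. Creld2 and Manf, small ER proteins induced by ER stress, had ratios of 0.862 and 0.951.

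Among the degradation factors, which export misfolded proteins from the ER, 1 of 4 was called lower, near the 23.4% of all measured genes. This was Herpud1, at 138 CPM in low and 95.7 CPM in high pigment cells (0.693, 0.660 to 0.727). Edem1, Sel1l and the ubiquitin ligase Syvn1 had ratios between 0.852 and 0.878. The interval of Syvn1 reached 1.00, since it rested on 355 and 269 UMIs. The regulators Xbp1 and Atf6 had 47.3 and 38.3 CPM (0.809, 0.748 to 0.875) and 26.9 and 24.9 CPM (0.925, 0.837 to 1.02). These libraries count the 3′ end of a transcript, so the spliced and unspliced forms of Xbp1 RNA were not told apart.

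**Figure D1:**
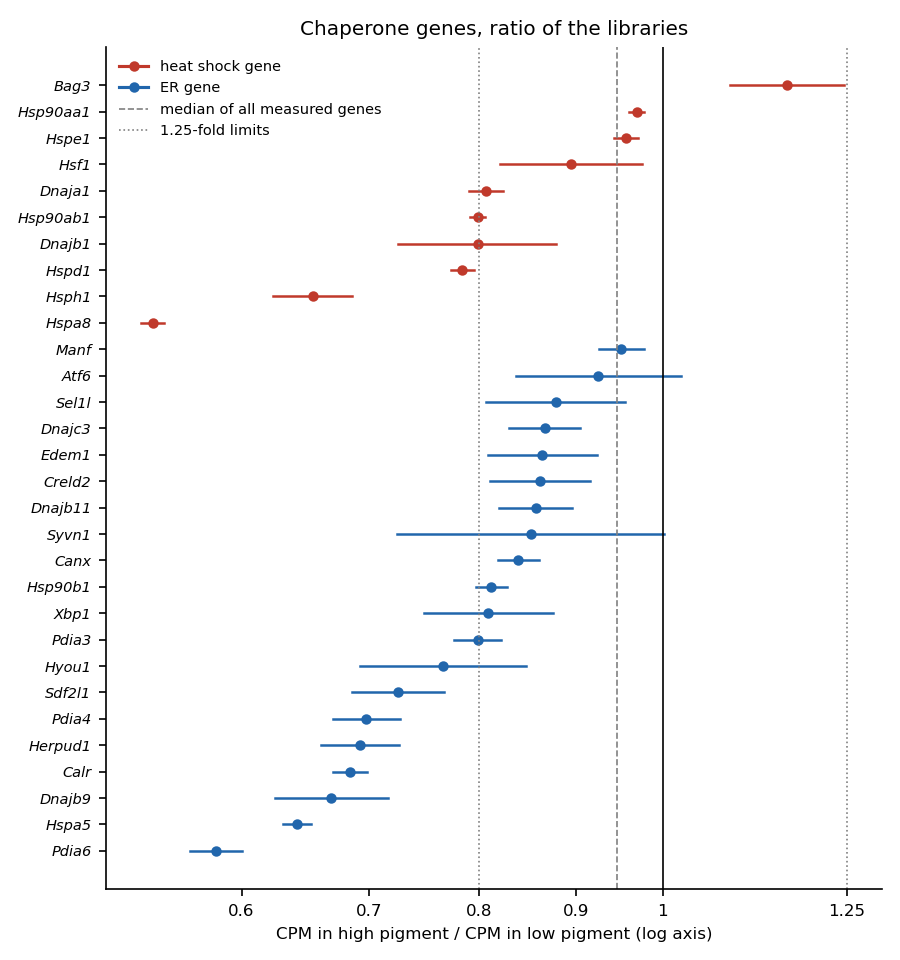
Ratio of CPM in the high pigment library to CPM in the low pigment library (log axis) for the 30 measured genes, 10 heat shock and 20 ER, with bars for the 95% interval of counting error. The dashed line is the median of all measured genes and the dotted lines are the limits of a call, 0.8 and its reciprocal; 29 of 30 points lie left of 1, Bag3 is the exception at 1.16 (with the median gene's ratio set to 1, Hsp90aa1, Hspe1 and Manf also lie above 1), and Hspa8 at 0.539 and Pdia6 at 0.582 lie farthest left.

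The ER stress element, to which Atf6 binds with NF-Y, was shared by many ER promoters, so its letters are shown for 5 of them together with the related element of Herpud1 and a further stretch of Hspa5. The element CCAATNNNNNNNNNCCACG was found, on either strand, in 8 of 17 ER promoters (Hspa5, Hsp90b1, Pdia6, Calr, Canx, Dnajc3, Creld2 and Syvn1), in 0 of 9 heat shock promoters and in 0.13% of 27025 genes. The second form, ATTGGNCCACG, was found in Herpud1 and in 0.037% of all genes. The shorter TGACGTG, the core of the unfolded protein response element, was found in Hspa5 and in 1.85% of all genes. TGANTCA, the AP-1 site to which Jun and Fos dimers bind, was found in Hspa5, Sel1l and Bag3 and in 7.82% of all genes. Capitals mark these letters, on the strand of each gene.
Hspa5: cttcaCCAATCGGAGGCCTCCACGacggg
Pdia6: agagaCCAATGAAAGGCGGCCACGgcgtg
Calr: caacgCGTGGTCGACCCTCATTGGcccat
Hsp90b1: caagcCCAATCGCAAGGAGCCACGcttcg
Canx: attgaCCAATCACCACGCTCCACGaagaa
Herpud1: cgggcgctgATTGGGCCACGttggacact
Hspa5, further upstream: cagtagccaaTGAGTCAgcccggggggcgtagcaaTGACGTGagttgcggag
The first Hspa5 window lies at chr2:34772020-34772048 and overlaps an annotated exon. The Pdia6 window lies at chr12:17266486-17266514, and that of Calr at chr8:84847070-84847098 on the minus strand, where the element reads in reverse. The Hsp90b1 window lies at chr10:86705633-86705661 and the Canx window at chr11:50325795-50325823, both on the minus strand. The Herpud1 window lies at chr8:94386368-94386396, and the upstream stretch of Hspa5, with the AP-1 letters first, at chr2:34771898-34771949.

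The ratios of ER genes with and without an exact match to the ER stress element are set side by side for few genes. Whether the element takes part in the ratios was not tested. Of the 8 ER genes with it, 3 were called lower in high pigment cells, with a median log2 ratio of -0.28. Of the 9 with a promoter and without it, among them Herpud1 with the second form, 5 were called lower, with a median of -0.32. Among all 6326 measured genes with a promoter, 22.9% were lower. Measured genes with AP-1 letters numbered 297, of which 23.9% were lower, with a median log2 ratio of -0.068.

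Other chaperone genes were described from 4 further lists of 102 names, of which 99 were in the matrix. Of all measured genes, 23.4% were lower and 10.9% higher, which are the shares to set beside each list. Of 27 other measured chaperones and co-chaperones of the cytosol and mitochondria, 9 were lower and 1 was higher, with a median log2 ratio of -0.20. Among those of at least 50 CPM, the ends were Serpinh1 (0.687), a collagen chaperone that resides in the ER, and Hsbp1 (1.37), which binds Hsf1. Less abundant genes reached lower, down to the Hsp90 co-chaperone Fkbp5 at 43.3 and 20.8 CPM (0.481), a gene chosen after its values were seen. Of 14 subunits of the chaperonin TRiC and of prefoldin, which fold actin and tubulin, 7 were lower and 1 was higher, with a median of -0.22. The lower end was held by TRiC subunits (Cct5 0.628, Cct8 0.681, Cct3 0.698) and the upper end by prefoldin subunits (Pfdn1 1.31, Pfdn6 1.18).

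The rest of the ER folding machinery stood nearer to the median gene. Of 39 other measured ER folding, translocation and degradation genes, 5 were lower and 3 were higher, with a median log2 ratio of -0.065. Over all measured genes 23.4% were lower and 10.9% higher. Ero1l, the oxidase that recharges disulfide isomerases, had 111 CPM in low and 182 CPM in high pigment cells (1.65, 1.58 to 1.72). The 3 isomerases of the first ER list were called lower, while P4hb, one of the 39 genes here, was not. The lowest of the 39 genes was the disulfide isomerase Txndc5 (0.590), also chosen after its values were seen. Dad1, a subunit of the enzyme that attaches glycans, had a ratio of 1.501, and the translocon subunit Sec61g one of 1.34. Of 12 measured genes of ER stress signalling, 3 were lower and 2 were higher, a share lower that lies near the 23.4% of all measured genes. The lower ones were Ppp1r15a (0.415), which reverses the block of translation, and the transcription factors Ddit3 (0.563) and Atf4 (0.684). The higher ones were Ern1 (1.56), the sensor that splices Xbp1 RNA, and Ppp1r15b (1.33), a relative of Ppp1r15a.

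In single cells both groups of genes were lower across the distribution. To compare cells at equal depth, each cell was thinned at random to 7500 UMIs. The median share of the 13 heat shock genes in the UMIs of a cell was 1.23% in low pigment cells (quartiles 1.07% and 1.40%) and 1.00% in high pigment cells (0.840% and 1.19%). Without thinning, the shares of all UMIs were 1.24% and 1.01%. For the 20 ER genes it was 0.507% (0.400% and 0.667%) and 0.387% (0.293% and 0.507%), or 0.527% and 0.394% without thinning. The distributions overlapped widely. For the heat shock genes, the median share of the low pigment library was exceeded by 20.6% of high pigment cells, and for the ER genes by 23.2%. Cells of 1 library are not replicates, so these percentages describe these libraries and are given without an interval.

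The lower level in high pigment cells was present within each cell cycle phase called by the authors, although the libraries differed in their phases. Heat shock genes had 4 of 10 lower in G1, 3 of 10 in S and 4 of 10 in G2M, and 0 higher in each. Of all measured genes, 25.9%, 22.2% and 26.1% were lower and 11.8%, 13.6% and 11.1% higher. The heat shock counts in S and the 0 higher thus lay near the shares of all genes. The median log2 ratios of the heat shock genes were -0.31, -0.29 and -0.31. ER genes had 15 of 20 lower in G1, 8 of 19 in S and 6 of 19 in G2M, the last near the 26.1% of all genes, also with 0 higher. Their median log2 ratios were -0.42, -0.30 and -0.23, beside -0.09, -0.05 and -0.09 for all measured genes. With phases called anew on thinned cells, 11 of 20, 11 of 19 and 7 of 20 ER genes were lower, beside 25.1%, 23.8% and 26% of all measured genes, so the larger count in G1 depended on the phase calls.

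Lower in all 3 phases were the heat shock genes Hspa8 and Hsph1 and the ER genes Calr, Dnajb9, Herpud1, Hspa5, Pdia4 and Pdia6. With phases called on thinned cells Herpud1 left this list, at 0.835 in G1, and Sdf2l1 joined it. Hspa8 had 1654, 2120.3 and 1982 CPM in G1, S and G2M of the low pigment library, and 973, 1278 and 973 CPM in the high pigment library. Its ratio was 0.588 in G1, 0.603 in S and 0.491 in G2M. Hspa5 had 1300.5, 1020.1 and 1076 CPM in low pigment and 789, 626 and 729 CPM in high pigment cells, with ratios of 0.607, 0.613 and 0.677. Every phase of the high pigment library lay below every phase of the low pigment library for both genes. Dnajc3 was called lower in G1 alone of the phases, at 0.723, with 0.970 in S and 0.931 in G2M.

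Within a library, Hspa8 was higher in S phase, whereas most ER genes called there were lower. In S against G1, Hspa8 was higher in both libraries, by 1.28-fold in low pigment (1.26 to 1.31) and 1.31-fold in high pigment cells (1.27 to 1.35). Heat shock genes had 1 of 10 higher in the low and 2 of 10 in the high pigment library, beside 13.7% and 15.6% of all measured genes, and Hspa8 was the one called in both. ER genes had 6 of 20 lower in S in the low pigment library and 3 of 19 in the high pigment library, beside 11.6% and 7.08% of all measured genes. The 3 shared ones were Xbp1 (0.685 and 0.660), Hsp90b1 (0.744 and 0.770) and Hspa5 (0.784 and 0.793). With phases called on thinned cells Xbp1 and Hsp90b1 were still shared, while Hspa5 had 0.815 in low pigment cells and was not called there.

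The remaining calls in S were made in 1 library each. In low pigment cells the ER genes Dnajb9 (0.754), Dnajc3 (0.764) and Syvn1 (0.534) and the heat shock gene Bag3 (0.781) were lower. Syvn1 had 14.9 CPM in G1 and 7.97 CPM in S there, and in high pigment cells it was under the minimum of 10 CPM. In high pigment cells Dnajb1 (1.41) and Atf6 (1.35) were higher, with wide intervals of 1.16 to 1.72 and 1.09 to 1.67. With phases called on thinned cells Atf6 was not called (1.19), and Bag3 was called in high pigment (0.784) and not in low pigment cells (0.816).

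In G2M against G1, 0 of 10 heat shock genes were called in either library. In the low pigment library 8 of 20 ER genes were lower, beside 9.2% of all measured genes, with Pdia6 at 399 CPM in G1 and 298 CPM in G2M (0.747, 0.712 to 0.784). In the high pigment library 1 of 19 was lower, beside 4.08%. That gene was Dnajb9, at 0.738 in low pigment and 0.718 in high pigment cells. The median log2 ratio of the ER genes was -0.27 in low pigment and -0.12 in high pigment cells. Herpud1 went the other way in low pigment cells, at 1.21 in S and 1.22 in G2M, short of the limit. These groups of cells come from 1 library each, so the ratios describe that library.

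**Figure D2:**
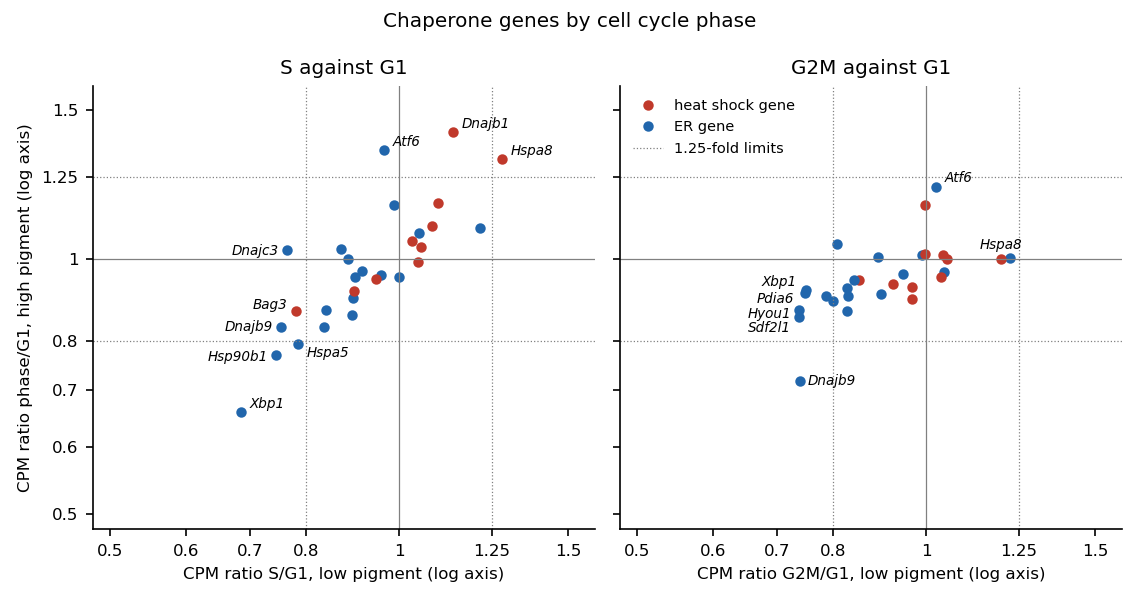
CPM ratio of S to G1 (left) and of G2M to G1 (right) for each measured chaperone gene, in the low pigment library (x axis) and the high pigment library (y axis), both on log axes with the limits of a call, 0.8 and its reciprocal, dotted. Hspa8 lies at 1.28 and 1.31 in the left panel and Xbp1 at 0.685 and 0.660, while in the right panel Dnajb9 is the one gene past the limit in both libraries, at 0.738 and 0.718.

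The clusters deposited by the authors divided each library mainly by phase, and the ER share was higher in the cluster with more G1 cells in each. Only groups of at least 50 cells were used: clusters 1 (1023 cells, 70.3% in G1) and 2 (822 cells) of the low pigment library, and clusters 0 (1520 cells) and 3 (523 cells, 89.1% in G1) of the high pigment library. ER genes took 0.582% and 0.479% of the UMIs in the low pigment clusters 1 and 2. In the high pigment clusters 0 and 3 they took 0.364% and 0.495%. The G1-rich cluster of high pigment cells lay close to the cycling cluster of low pigment cells. Clusters were made from these genes among others, so their values are a description.

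Heat shock genes varied less between the clusters of a library. They took 1.23% and 1.27% of UMIs in the low pigment clusters 1 and 2, and 0.984% and 1.09% in the high pigment clusters 0 and 3. Hspa8 had 1741 and 2133 CPM in the former and 1003 and 1099.7 CPM in the latter, so it was apart between libraries in every pairing. Hspa5 had 1289.6 and 987 CPM in the low pigment clusters against 653 and 962 CPM, so it was lower in every pairing too, by little between clusters 3 and 2, whose intervals overlapped. Hsp90b1 was not apart: its 900.1 CPM in the high pigment cluster 3 lay between the 949 and 704 CPM of the low pigment clusters.

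Heat shock and ER genes were weakly related to each other from cell to cell. Across cells thinned to equal depth, Spearman's rho between the summed heat shock and the summed ER counts was 0.116 over 1900 low pigment cells and 0.354 over 2136 high pigment cells. Within the phases it was 0.112, 0.109 and 0.238 in G1, S and G2M of low pigment cells, and 0.453, 0.314 and 0.304 in high pigment cells. Cells of a library share its preparation and these counts are sparse, so correlations are given without a test and a weak one is no finding.

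Within each list the genes went together more than between the lists. For genes of at least 50 CPM the median pairwise rho was 0.124 among heat shock genes and 0.0999 among ER genes in low pigment cells, and 0.0246 between the lists. In high pigment cells these medians were 0.0981, 0.0853 and 0.0563. Over all gene pairs the 95th percentile was 0.0490 in low pigment and 0.0531 in high pigment cells. The most closely related pair was Hspa5 with Hsp90b1, at 0.393 in low and 0.410 in high pigment cells. Hsp90aa1 with Hsp90ab1 reached 0.400 in high pigment cells.

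**Figure D3:**
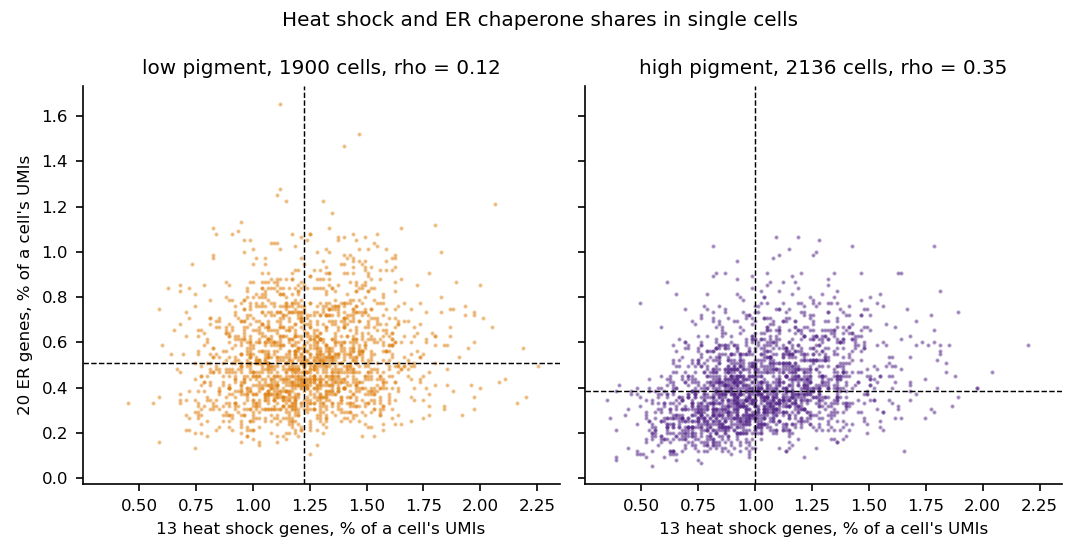
Share of a cell's 7500 thinned UMIs taken by the 13 heat shock genes (x axis) and by the 20 ER genes (y axis), 1 point per cell, for 1900 low pigment cells (left) and 2136 high pigment cells (right), with dashed lines at the medians. The medians are 1.23% and 0.507% on the left and 1.00% and 0.387% on the right, and the clouds overlap.

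Jun and Fos, the immediate early genes whose proteins form the AP-1 transcription factor, differed more between the libraries than any chaperone with a mean of at least 10 CPM. Jun had 842 CPM in low and 129 CPM in high pigment cells, and Fos 137 and 21.8 CPM. In cells thinned to 7500 UMIs, Jun plus Fos had a median of 7 UMIs in low pigment and 1 in high pigment cells.

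Across cells of 1 library both lists were weakly related to Jun plus Fos. Spearman's coefficient with the ER sum was 0.172 in low pigment and 0.207 in high pigment cells. With the heat shock sum it was 0.0628 and 0.121. The order of the lists was not steady: in G1 cells of the low pigment library it was 0.102 with the ER sum and 0.135 with the heat shock sum, and in S cells of the high pigment library 0.129 and 0.146. Depth and quality moved with these values: before thinning, UMIs per cell had a rho of -0.134 and -0.159 with Jun plus Fos and of -0.195 and -0.238 with the ER sum. The percent of mitochondrial UMIs had a rho of 0.132 and 0.174 with the ER sum, and of -0.0791 and 0.0955 with Jun plus Fos. In low pigment cells these signs were thus opposite. Their part in the relation was not tested. Among cells with under 6% mitochondrial UMIs, rho of the ER sum with Jun plus Fos was 0.202 and 0.171. Within single clusters it was 0.0890 and 0.0951 in clusters 1 and 2 of low pigment cells, and 0.101 and 0.225 in clusters 0 and 3 of high pigment cells.

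Gene by gene the relation was uneven. Hspa5 had a rho of 0.160 in low and 0.182 in high pigment cells, larger than that of 99.8% of all measured genes in each library. Hsp90b1 had 0.151 and 0.132, Pdia3 0.10 and 0.116, and Calr 0.0827 and 0.137. Among heat shock genes Hsp90ab1 had 0.135 and 0.107 and Dnaja1 0.0815 and 0.0972. These genes lay above the 95th percentile of all measured genes, which was 0.0551 in low and 0.0578 in high pigment cells.

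The gene with the lowest ratio of the libraries among the measured members was not among them. Hspa8 had a rho of -0.0077 in low and 0.0253 in high pigment cells. Hspe1 had -0.0376 and -0.0334, and Herpud1 -0.0062 and 0.137. The median rho of the heat shock genes was 0.0112 and 0.0595 and that of the ER genes 0.0414 and 0.0566, beside -0.0011 and 0.0034 over all measured genes. Among genes of at least 50 CPM the median rho of the 15 ER genes was 0.0629 and 0.0666, beside 0.0020 and 0.0031 over 3045 genes.

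**Figure D4:**
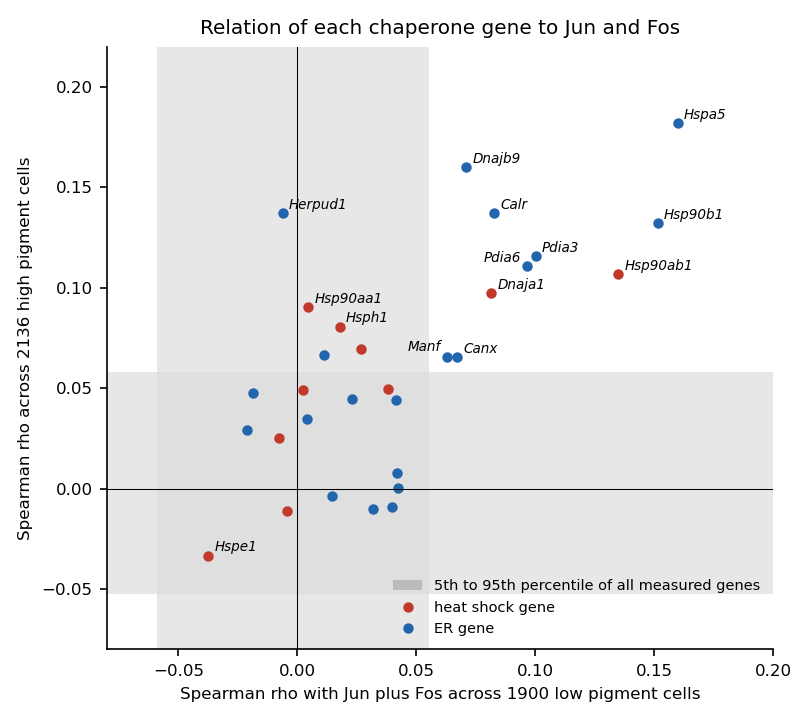
Spearman's rho of each measured chaperone gene with Jun plus Fos across 1900 low pigment cells (x axis) and 2136 high pigment cells (y axis), at 7500 UMIs per cell, with grey bands from the 5th to the 95th percentile of all measured genes. Hspa5 lies at 0.160 and 0.182, outside both bands, as do Hsp90b1, Calr, Pdia3, Pdia6, Dnajb9, Manf, Canx, Hsp90ab1 and Dnaja1, while Hspe1 is the lowest on both axes. Among genes of at least 50 CPM the 95th percentiles were 0.0671 and 0.0692, and Manf and Canx lie under these on both axes.

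Cells of the libraries were then compared at like counts of Jun plus Fos. Of the low pigment cells 35 had 0, 150 had 1 to 2, 902 had 3 to 7 and 813 had 8 or more such UMIs after thinning, against 1029, 816, 239 and 52 high pigment cells. The median ER share in these bins was 0.453%, 0.433%, 0.493% and 0.533% in low pigment cells and 0.360%, 0.387%, 0.440% and 0.527% in high pigment cells. The heat shock share was 1.13%, 1.19%, 1.22% and 1.24% against 0.973%, 0.987%, 1.13% and 1.19%. The medians of high pigment cells were lower in each bin, with overlapping quartiles. At 8 or more UMIs the ER medians were close, and the lower ER quartile went the other way, at 0.427% in low and 0.440% in high pigment cells. With another random thinning the medians of the 35 low pigment cells with 0 were 0.533% for the ER and 1.27% for the heat shock genes, so no course over the bins is read for low pigment cells.

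The ER list had most genes called lower in the bins with few Jun and Fos UMIs, where more of all measured genes were lower too. Of 19 measured ER genes, 11 were lower in high pigment cells at 0 Jun and Fos UMIs and 6 at 1 to 2, beside 30.6% and 27.9% of all measured genes. At 3 to 7 UMIs 1 of 19 was lower and 1 higher, beside 18.8% and 11.6%, and at 8 or more 5 of 20 were lower and 1 higher, beside 21.4% and 18.8%. The counts lower at 1 to 2 and at 8 or more UMIs thus lay near the shares of all measured genes. The median log2 ratios of the ER list were -0.34, -0.25, -0.06 and -0.05. With another random thinning 3 of 19 were lower and 0 higher at 3 to 7 UMIs, beside 19.4% and 11.5%, and 3 of 20 lower and 2 higher at 8 or more, beside 21% and 19.4%. The bin of 0 rests on 35 low pigment cells. Cells in a bin were not alike otherwise: at 3 to 7 UMIs their median depth was 16551 UMIs in low and 10915 in high pigment cells, and their mean Jun plus Fos count 5.16 and 4.15. The 48 and 45 high pigment cells placed in clusters 1 and 2, which held mostly low pigment cells, had mean Jun plus Fos counts of 5 and 6.16. In the high pigment cells of clusters 0 and 3 these means were 0.822 and 1.65. How the clusters were spread over the bins was not counted.

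Of the 10 heat shock genes measured over the whole libraries, 4 were lower at 0 and at 1 to 2 UMIs, 1 at 3 to 7 and 2 at 8 or more, beside 30.6%, 27.9%, 18.8% and 21.4% of all measured genes, so most of these counts lay near the background. In each bin 1 was higher, beside 16.4%, 11.1%, 11.6% and 18.8%. Hspa1b reached the minimum of 10 CPM at 8 or more only through the 52 high pigment cells, where it had 12 UMIs, and is left out of these counts. Hspa8 was lower in every bin, at 0.628, 0.508, 0.610 and 0.691, and so was Pdia6 among the ER genes, at 0.584, 0.652, 0.770 and 0.725. Hspa5 had ratios of 0.721, 0.728, 0.832 and 0.936, so it was called in the lower 2 bins. Bag3 was the heat shock gene called higher at 0, 1 to 2 and 3 to 7 UMIs, at 1.33, 1.40 and 1.46, and had 1.00 at 8 or more. At 0 UMIs that ratio of Bag3 rests on 23 UMIs in the low pigment cells and was 1.16 with another random thinning.

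Within the high pigment library, 52 cells with 8 or more Jun and Fos UMIs were set beside the 1029 cells with 0. Among members of at least 10 CPM in each whole library, 11 of 19 ER genes were higher and 2 lower, beside 27.3% and 17.7% of all measured genes, and 5 of 10 heat shock genes were higher and 1 lower. Hspa1b and Syvn1 passed the minimum here only through the cells where they were high, and are left out. Hspa5 had 662 CPM at 0 and 1144 CPM at 8 or more (1.73, 1.59 to 1.87), and Dnajb9 had 35.4 and 90.9 CPM (2.57, 1.90 to 3.41). Dnajb1 had 23.2 and 56.6 CPM (2.44, 1.65 to 3.50). The 52 cells differed in phase too, with 48.1% in G1 against 27.6%, and phase and Jun and Fos counts were not separated here. Nor were the high pigment cells placed in clusters 1 and 2, whose mean Jun plus Fos counts were higher, set apart from the rest. In low pigment cells the same step gave 4 of 19 ER genes higher and 1 lower, beside 17.4% and 19.4%, and 1 of 10 heat shock genes higher and 1 lower. These counts rest on the 35 cells at 0: with another random thinning 3 of 19 ER genes were higher, and the median log2 ratio over all measured ER genes was -0.041 in place of 0.18.

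**Figure D5:**
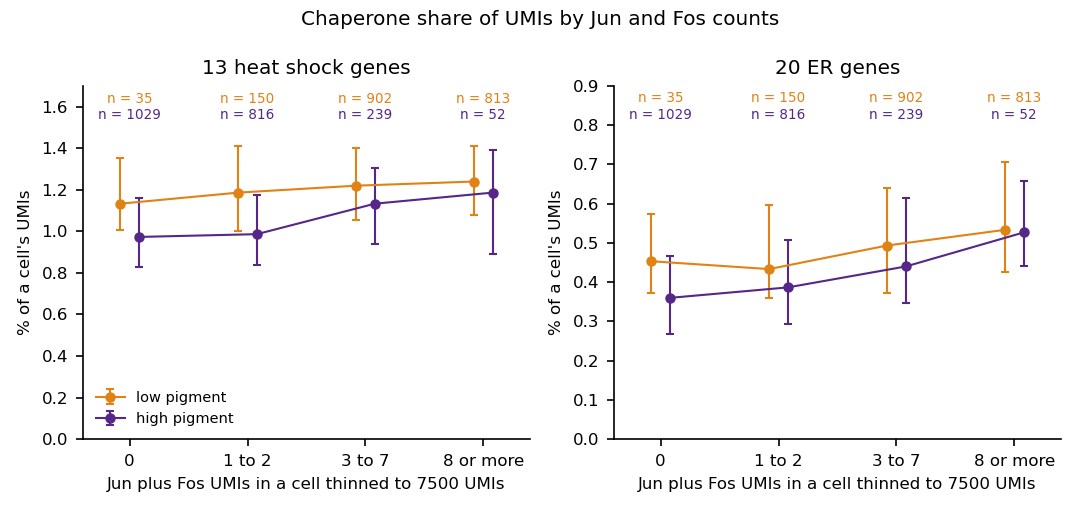
Median share of a cell's UMIs taken by the 13 heat shock genes (left) and the 20 ER genes (right) in cells with 0, 1 to 2, 3 to 7 and 8 or more Jun plus Fos UMIs, after thinning to 7500 UMIs; bars are quartiles and n is the number of cells. In high pigment cells the ER median goes from 0.360% to 0.527% over the bins, and in low pigment cells from 0.453% to 0.533%, where the first point rests on 35 cells and was 0.533% with another random thinning.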

How the data were processed

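Single-cell libraries of sorted low and high pigment B16 F10 cells were compared, 1 library per group. The authors deposited 1 matrix of UMI counts per gene and barcode for both libraries, and the submitters' processing notes name Cell Ranger 6.1.2 and build mm10. The sources used here do not say whether aggregation equalised depth or how reads that fit several genes were treated. Hspa1a and Hspa1b are near-identical, and other members have copies elsewhere in the genome. The deposited cell table gives the group, phase, cluster and percent of mitochondrial UMIs of each cell. The table's 4036 cells were used, out of 5818 barcodes. No doublet caller was run.

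Counts were summed per library (or per phase, cluster or bin) and divided by total UMIs to give CPM. Ratios have exact conditional binomial 95% intervals, and a count of 3 was taken as the floor. Genes were called by size, at a ratio of 0.8 or its reciprocal, among those with a mean of at least 10 CPM. For single cells, counts were drawn without replacement to 7500 UMIs per cell, so no cell was lost. Phases were also called anew with scanpy 1.11.5. The scripts were tested on simulated data.

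The members, the further lists and the rules were chosen with earlier results of these data known. All members are named, and in each further list up to 3 genes from either end of the order by ratio among those of at least 50 CPM, except those that a count needed. Coordinates of genes are from GENCODE vM21, and promoter letters from RefSeq.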

Additional observations from a re-analysis of the deposited data

Results flagged for a closer look

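Barcodes outside the authors' cell table, which enter no comparison of the report, held a larger share of ER counts where their mitochondrial share was high. In the low pigment library, 587 such barcodes with at least 10% mitochondrial UMIs had 0.769% of their non-mitochondrial UMIs in the 20 ER genes, against 0.559% in the 1900 cells of the table. In the high pigment library 155 such barcodes had 0.634%, against 0.415% in the table. The heat shock share did not follow: it was 1.14% against 1.32% in low pigment and 0.969% against 1.07% in high pigment barcodes. Barcodes outside the table with under 10% mitochondrial UMIs, which have fewer UMIs than any cell in the table, had an ER share of 0.323% in low pigment and 0.421% in high pigment barcodes. The barcodes with at least 10% were shallow on average too: the 587 held 1631245 UMIs in all and the 155 held 683721. Cells of the table had at least 7597 UMIs each in low pigment and 7514 in high pigment.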

How the results depend on the processing

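No paired analysis was possible because each group has 1 library and no result comes from a test. Changes in setting reversed 0 called values, and in 6 settings all called members kept their sign. Of the heat shock genes, the count lower was 2 with the median gene's ratio set to 1, 3 with each cell weighted equally and 2 at 1.5-fold. It was 1 higher in cells with 0 Jun and Fos UMIs. Their median log2 ratio was -0.24 with the median gene's ratio set to 1, -0.28 with cells weighted equally, -0.28 in thinned cells and -0.23 in cells with 0 Jun and Fos UMIs. Of the ER genes, 15 were lower in G1 cells alone and 2 at 1.5-fold; their median log2 ratio was -0.22 with the median gene's ratio set to 1 and -0.42 in G1 cells. Across cells, rho of the ER sum with Jun plus Fos in high pigment cells was 0.101 in cluster 0 alone, and rho of the heat shock with the ER sum in low pigment cells was 0.238 in G2M. Settings by single cluster and the heat shock sum without Hspa8 were chosen after seeing the data, as were the counts over members of at least 10 CPM in each whole library. These counts gave 1 heat shock gene lower for 8 or more against 0 UMIs in low pigment cells, and 1 higher between the libraries at 8 or more. With phases called on thinned cells, S against G1 gave 0 heat shock genes lower in low pigment and 1 in high pigment cells, and 0 ER genes higher in high pigment cells. With another random thinning, 0 heat shock genes were higher at 0 Jun and Fos UMIs. ER genes then had 3 lower and 0 higher at 3 to 7 UMIs, and 3 lower and 2 higher at 8 or more. For 8 or more against 0 UMIs, that thinning gave 0 heat shock genes lower and 3 ER genes higher in low pigment cells, and 0 heat shock genes lower and 1 ER gene lower in high pigment cells. At most 355 UMIs per library limit Syvn1, and at most 240 limit Hspa1a, Hspa1b and Hspb1. Cells, cultures and sorts were not replicated.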

Other observations

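Jun and Fos were nearly unrelated to each other across low pigment cells (Spearman's rho -0.0290 over 1900 cells at 7500 UMIs) and weakly related across high pigment cells (0.202 over 2136 cells). The ER sum had a rho of 0.135 with Jun and 0.120 with Fos in low pigment cells, and of 0.215 and 0.0644 in high pigment cells. The heat shock sum had 0.0319 with Jun and 0.113 with Fos in low pigment cells, and 0.120 and 0.0764 in high pigment cells. The larger partner of the heat shock sum was thus Fos in one library and Jun in the other.

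The deposited clusters placed 4 small groups of cells with the other library. Their chaperone shares lay nearer to those of their cluster than of their library, though by little for 1 heat shock share. The 48 high pigment cells in cluster 1 had an ER share of 0.571% and a heat shock share of 1.22%, beside 0.582% and 1.23% in the 1023 low pigment cells of that cluster. The 36 low pigment cells in cluster 0 had 0.406% and 1.05%, beside 0.364% and 0.984% in the 1520 high pigment cells there. The 19 low pigment cells in cluster 3 had 0.496% and 1.13%, beside 0.495% and 1.09% in 523 high pigment cells. The 45 high pigment cells in cluster 2 had an ER share of 0.460%, beside 0.479% in the 822 low pigment cells there, but a heat shock share of 1.14%, about midway between the 1.27% of that cluster and the 1.01% of their library. Since clusters were made from the expression of these cells, this is a description and no test.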
